A study of Mus musculus with 9 samples.

Results

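The desmosome genes are the 10 mouse genes Dsp, Jup, Pkp1, Pkp2, Pkp3, Dsg2, Dsc2, Ppl, Evpl and Perp. They were chosen by name, with earlier results of these data known, and found by matching the Ensembl identifiers of the count files to gene symbols. All 10 were among the 47643 genes listed and among the 14105 with at least 100 counts in total, the minimum for testing. They were followed in 9 libraries of primary mouse pancreatic ductal adenocarcinoma (PDAC) cells, 6 from KPF mice and 3 from KPYYF mice. Both genotypes share Trp53 frt/+, Pdx-Flp and R26 FSF-CreER/Dual, and KPYYF mice also carry Yap flox/flox. Flp under the Pdx1 promoter removes the Trp53 copy that carries frt sites and switches on EGFP in pancreatic cells. Mice received no tamoxifen while tumors formed and then a tamoxifen diet, which activates CreER. CreER exchanges EGFP for tdTomato (Tm) and deletes Yap where its alleles are floxed. KPF libraries came from sorted GFP+Yap+ cells of KPF tumors and KPYYF libraries from sorted Tm+Yap− cells of relapsed KPYYF nodules, so that genotype, Yap status and reporter color cannot be told apart. The study used both sexes, and the age and sex of each animal were not in the labels. Each library bears a mouse number, and KPF libraries 4504h and 4504s share the number 4504, so that the 6 KPF libraries may come from 5 mice.

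Desmosomes are spot junctions that tie the keratin filaments of neighboring epithelial cells together. Outside the cell, desmogleins and desmocollins, which are cadherins, bind their partners on the next cell. Inside, plakoglobin (Jup) and the plakophilins bind the cadherin tails, and desmoplakin (Dsp), a plakin, links this plaque to keratin. Simple epithelia such as the pancreatic duct are known to use Dsg2, Dsc2 and Pkp2, whereas skin uses further cadherins and Pkp1.

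The files held raw read counts per gene from 3′ tag RNA sequencing, in which a transcript is read near its 3′ end. Between 8116539 and 9635514 reads were assigned to genes per library. Values are given as CPM (reads of a gene per 1000000 reads, on library sizes scaled by TMM). In these units 3 counts corresponded to between 0.292 and 0.437 CPM. Levels were not compared between genes. Yap1, the deleted gene, was at 41.8 to 151 CPM in KPF libraries, against 0.712 to 7.12 CPM in those of KPYYF mice (log2 fold change −4.79 with an SE of 0.72, edgeR quasi-likelihood test, adjusted p = 0.0159). Xist, from the inactive X chromosome, had 71 to 159 counts in KPF libraries 4269, 4515 and 4601 and 3452 to 16108 counts in the other 6 libraries, so that the libraries with little Xist were all KPF. The labels give no more on how the libraries of a group are related, and p-values measure the spread between these libraries.

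Desmosomal transcripts were scarcer in KPYYF libraries 4891 and 4938 than in the KPF libraries, and less so in KPYYF library 4449. Summed over the 10 genes, KPF libraries held between 349 and 1659 CPM (median 723), and KPYYF libraries held 498 CPM in 4449, 94.5 CPM in 4891 and 110 CPM in 4938. The sum in 4449 therefore lay within the KPF range, and the sums in 4891 and 4938 lay below it. The log2 fold change (KPYYF relative to KPF) was negative for 9 genes and positive for Pkp1. Their median was −1.85, against −0.07 for all genes tested. In bulk libraries, fewer cells that express these genes and less RNA per cell cannot be told apart.

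Dsp fell at an adjusted p under 0.05, making 1 of the 10 desmosome genes against 0.794% of all genes tested that were called lower. No desmosome gene was called higher by edgeR, where 0.305% of all genes were. None was higher at an unadjusted p under 0.05, where 860 of all 14105 genes were. DESeq2 and limma-voom called none higher either, and called 269 of 13748 and 44 of 14105 genes higher. At these shares, 0 of 10 does not set the desmosome genes apart. By the looser rule of the study's methods, an unadjusted p under 0.05 with a change of more than 2-fold, Dsp, Pkp2, Pkp3 and Dsg2 were lower, 4 of 10 against 9.20% of all genes. For Dsp and Pkp2, every KPYYF library lay below every KPF library, 2 of 10 against 5.18% of all genes. DESeq2 called Dsp, Pkp2 and Dsg2 lower, 3 of 10 against 6.75% of all genes. Because the 10 genes were chosen with earlier results of these data known, these shares are descriptions and no independent test.

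**Figure D1:**
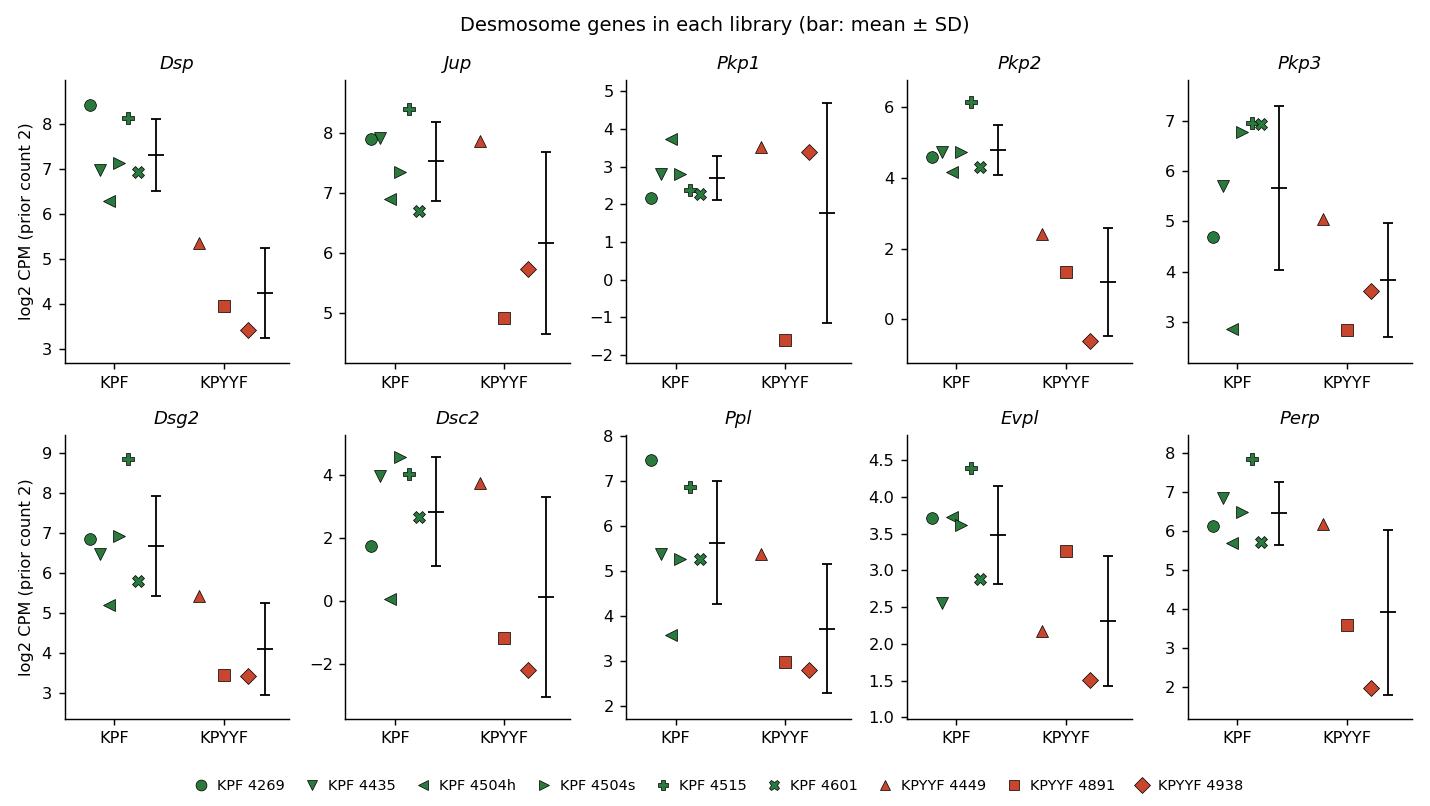
Level of each desmosome gene in each library, as log2 CPM with a prior count of 2 on the y axis and a scale of its own for each gene, with KPF libraries in green and KPYYF libraries in red, a symbol for each library, and the bar at the mean ± SD (n = 6 and n = 3). The groups are apart for Dsp and Pkp2 and overlap for the other 8 genes, and KPYYF library 4449 is the highest of its group for 9 of the 10.

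Dsp (ENSMUSG00000054889, GRCm38 chromosome 13, 38151294 to 38198577, plus strand) encodes desmoplakin, the obligate link between plaque and keratin. It ranged from 77.8 CPM in 4504h to 340 CPM in 4269 among the KPF libraries (median 133). The KPYYF libraries had 40.8 CPM in 4449, 15.3 CPM in 4891 and 10.5 CPM in 4938. All 3 KPYYF libraries thus lay below the lowest KPF library. The mean was 180 ± 104 CPM (SD, n = 6) in KPF and 22.2 ± 16.3 CPM (SD, n = 3) in KPYYF libraries. The log2 fold change was −3.02, an 8.12-fold lower level (SE 0.61, edgeR quasi-likelihood test, adjusted p = 0.0357). The exact two-sided permutation test of log2 CPM gave p = 0.0119, the smallest that the 84 splits of 9 libraries allow. The call rested on several libraries: leaving out KPF library 4435, 4504s or 4515 gave an adjusted p of 0.0703, 0.0651 or 0.0729, and leaving out KPYYF library 4891 or 4938 gave 0.136 or 0.121, with log2 fold changes between −3.80 and −2.68 over the 9 libraries left out in turn. Among the 6 libraries with at least 1000 Xist counts, its log2 fold change was −2.37 (edgeR adjusted p = 0.133). The KPF libraries of that fit were 4435, 4504h and 4504s, taken as independent although 4504h and 4504s share a mouse number.

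Jup (ENSMUSG00000001552, chromosome 11, 100368958 to 100397763, minus strand) encodes plakoglobin, an armadillo protein that binds desmosomal cadherins and also classical cadherins at adherens junctions. Its KPF values ran from 105 CPM in 4601 to 340 CPM in 4515 (median 202). KPYYF library 4449 had 233 CPM, inside the KPF range and above its median, whereas 4891 had 30.1 CPM and 4938 had 53.4 CPM, both below the lowest KPF library. Its log2 fold change was −0.93 (SE 0.61, adjusted p = 0.5002, exact permutation p = 0.0833). Without KPYYF library 4449 it was −2.27 (SE 0.52), with an edgeR adjusted p of 0.0498.

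Jup differed less between the groups than Dsp did. Each KPF library had between 0.701 and 1.92 Jup reads per Dsp read (median 1.20). The KPYYF libraries had 5.71 in 4449, 1.96 in 4891 and 5.07 in 4938, all above the highest KPF library, although 4891 was above it only narrowly. The difference in the log2 ratio was 1.70 (exact two-sided permutation p = 0.0119, the smallest possible, and 0.0476 after Benjamini-Hochberg adjustment over 4 ratios). The permutation test took all KPF libraries as independent, although some of them may come from the same mouse. It was not repeated with those libraries summed. Fewer splits would then exist, so the smallest possible p would be larger. Adjusted over the 4 ratios, with the other 3 as they stand, it would not stay under 0.05. These 4 ratios were chosen after the values had been seen. The other 3 overlapped between the groups and are given with the genes concerned.

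**Figure D2:**
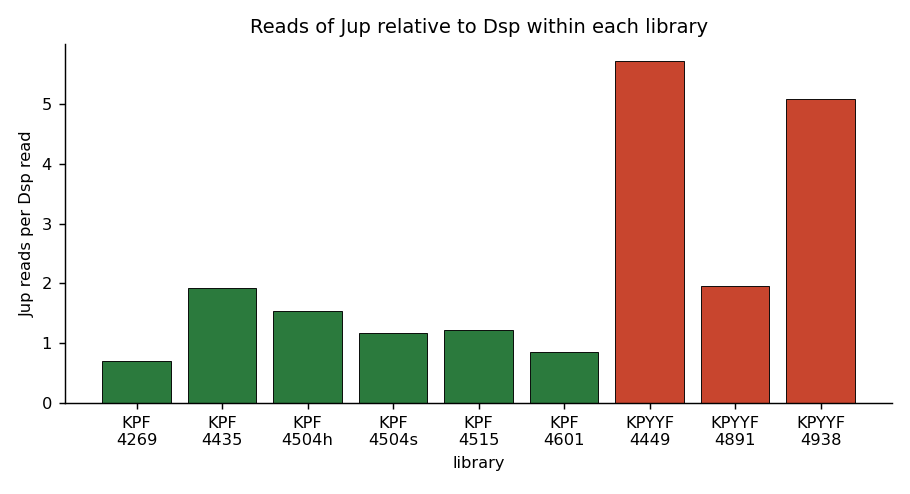
Reads of Jup per read of Dsp within each library on a linear y axis that starts at 0, with KPF libraries in green and KPYYF libraries in red and no error bar because each bar is 1 library. The 6 KPF bars end between 0.701 and 1.92, and the KPYYF bars at 5.71, 1.96 and 5.07.

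The start regions of these genes are shown because Dsp and Jup differed unequally between the groups, and because they are the 2 of the 10 genes with an entry in the RefSeq promoter set used here (GRCm38.p6). Each window ends before the first transcribed base and is written 5′ to 3′ on the strand of the gene, with GC boxes (GGGCGG on either strand, the letters bound by Sp1-type factors) in capitals. The Dsp window is chr13:38151044-38151293 (plus strand, 250 bases) and the Jup window chr11:100397840-100398040 (minus strand, 201 bases).
Dsp: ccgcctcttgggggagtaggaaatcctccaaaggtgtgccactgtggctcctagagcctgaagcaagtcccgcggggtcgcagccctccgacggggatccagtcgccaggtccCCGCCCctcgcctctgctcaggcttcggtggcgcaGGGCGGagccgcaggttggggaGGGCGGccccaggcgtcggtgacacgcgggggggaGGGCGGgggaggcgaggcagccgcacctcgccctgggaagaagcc
Jup: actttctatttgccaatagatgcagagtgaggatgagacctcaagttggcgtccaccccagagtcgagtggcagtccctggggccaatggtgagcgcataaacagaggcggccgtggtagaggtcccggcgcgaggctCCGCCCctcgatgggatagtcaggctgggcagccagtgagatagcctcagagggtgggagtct

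The Dsp window held 4 GC boxes, and 32.7% of all 32851 promoters held at least 1 in a window of that length. The Jup window held 1, against 24.8% of all promoters at its length. The GC content of the Dsp window was 72.4%, with 22 CpG dinucleotides, and 93.6% of all promoters had a lower GC content. That of the Jup window was 60.2%, with 10 CpG dinucleotides, and 74.8% of all promoters had a lower GC content. Neither window held the grainyhead letters ACCGGTT (0.831% and 0.654% of all promoters at the 2 lengths), the E-box CAGGTG recognized by Zeb and Snai proteins (17.2% and 14.5%), the TEAD letters GGAATG (12.6% and 10.7%) or the AP-1 letters TGANTCA (6.75% and 5.59%), on either strand. These are matches of letters in short windows and say nothing on binding.

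The plakophilins are armadillo proteins of the plaque that gather cadherins and desmoplakin, and 3 of their genes were among the 10. Pkp2 (ENSMUSG00000041957, chromosome 16, 16213318 to 16272712, plus strand), the plakophilin of simple epithelia and heart, ranged from 17.9 CPM in 4504h to 70.4 CPM in 4515 among KPF libraries (median 25.0). Its KPYYF values were 5.11 CPM in 4449, 2.30 CPM in 4891 and 0.438 CPM in 4938, the last from 4 reads. The groups did not overlap, with means of 30.7 ± 19.7 CPM (SD, n = 6) and 2.61 ± 2.35 CPM (SD, n = 3). Its log2 fold change of −3.55 (SE 0.79), or 11.7-fold, was the most negative of the 10 and missed the threshold narrowly (edgeR adjusted p = 0.0514, exact permutation p = 0.0119). DESeq2 gave 4.52e-05, and adjusted p-values ran from 4.52e-05 to 0.209 over 17 alternatives, of which 4 passed.

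Pkp3 (ENSMUSG00000054065, chromosome 7, 141078218 to 141090510, plus strand), which is found in most epithelia, spread 17.7-fold among the KPF libraries alone, from 7.05 CPM in 4504h to 125 CPM in 4515 (median 80.9). The KPYYF libraries had 33.0 CPM in 4449, 6.89 CPM in 4891 and 12.1 CPM in 4938. Only 4891 was below the lowest KPF library, and that by a narrow margin, so the log2 fold change of −2.09 (SE 0.87, adjusted p = 0.266) did not pass the adjustment.

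Pkp1 (ENSMUSG00000026413, chromosome 1, 135871395 to 135919207, minus strand), best known from stratified epithelia such as skin, was at 4.28 to 13.1 CPM in KPF libraries (median 5.87). It was at 11.3 CPM in 4449 and 10.3 CPM in 4938, both inside the upper part of that range, and at 0.109 CPM in 4891, a single read. A log2 fold change of 0.09 resulted (SE 1.00, adjusted p = 0.979), and its sign turned when 4449, 4938 or KPF library 4269 was left out. In 4938, Pkp1 thus stayed in the KPF range while Pkp2 was near the detection floor. The ratio of Pkp1 to Pkp2 plus Pkp3 reads was 0.0255 to 0.525 in KPF libraries and 0.296, 0.0119 and 0.825 in 4449, 4891 and 4938 (exact permutation p = 0.345, adjusted p = 0.683).

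The desmosomal cadherins of simple epithelia, Dsg2 and Dsc2, lie in the cadherin cluster on chromosome 18. Dsg2 (ENSMUSG00000044393, 20558074 to 20604521, plus strand), desmoglein 2, was at 36.7 CPM in 4504h to 460 CPM in 4515 among KPF libraries (median 101). The KPYYF libraries had 42.5 CPM in 4449, 10.7 CPM in 4891 and 10.4 CPM in 4938. Library 4449 overlapped 4504h, and the other two lay below every KPF library. With a log2 fold change of −2.78 (SE 0.90), edgeR gave an adjusted p of 0.164 and the exact permutation test p = 0.0238, and DESeq2 gave an adjusted p of 0.00245. An antisense gene that overlaps Dsg2, Gm16090, had 3 reads in all libraries together.

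Dsc2 (ENSMUSG00000024331, 20030633 to 20059554, minus strand), desmocollin 2, had the widest spread of the 10 among KPF libraries, 28.8-fold, from 0.818 CPM in 4504h to 23.6 CPM in 4504s (median 10.8). KPYYF library 4449 had 13.3 CPM from 112 reads, above the KPF median, whereas 4891 had 2 reads and 4938 had none, which is at or below the detection floor. Over all libraries the log2 fold change was −1.27 with an SE of 1.46 (adjusted p = 0.736). Without 4449 the fitted value was −6.46 (SE 1.76, adjusted p = 0.0886), which is no measure of a fold because both remaining KPYYF libraries were under 3 reads. The ratio of Dsc2 to Dsg2 reads, 0.0223 to 0.196 in KPF libraries and 0.313, 0.0204 and 0 in the KPYYF libraries, was not separable (exact permutation p = 0.940, adjusted p = 0.940).

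The desmosomal cadherins of stratified epithelia were near or below detection in both groups. Dsg1a, Dsg1b, Dsg1c, Dsg4 and Dsc1 had no read in any of the 9 libraries, and Dsg3 had 10 reads, all in KPF libraries. The 15 reads of Dsc3 all came from KPYYF library 4891, at 1.64 CPM, in which Dsc2 had 2 reads. None of these 7 genes had enough reads to be tested.

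Periplakin (Ppl) and envoplakin (Evpl) are plakins that join desmosomes to the cornified envelope in stratified epithelia and occur in other epithelia too. Ppl (ENSMUSG00000039457, chromosome 16, 5086291 to 5132421, minus strand) was at 11.8 CPM in 4504h to 177 CPM in 4269 among KPF libraries (median 40.0). KPYYF library 4449, at 41.8 CPM, matched the KPF median, while 4891 had 7.65 CPM and 4938 had 6.79 CPM, below all KPF libraries. Ppl had a log2 fold change of −1.91 (SE 0.91, adjusted p = 0.335, exact permutation p = 0.107).

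Evpl (ENSMUSG00000034282, chromosome 11, 116220559 to 116238077, minus strand) departed from the other genes, in all of which 4449 was the highest KPYYF library. Its KPF range was 5.63 CPM in 4435 to 20.8 CPM in 4515 (median 12.5). Here 4891 was the highest KPYYF library, at 9.40 CPM and within the KPF range, and 4449 and 4938 lay below that range at 4.27 and 2.63 CPM. Evpl had a log2 fold change of −1.13 (SE 0.70, adjusted p = 0.468). Evpl reads per Ppl read were 0.0733 to 1.11 in KPF libraries and 0.102, 1.23 and 0.387 in 4449, 4891 and 4938 (exact permutation p = 0.512, adjusted p = 0.683).

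Perp (ENSMUSG00000019851, chromosome 10, 18845020 to 18857073, plus strand) encodes a tetraspan membrane protein of desmosomes that is a target of p53 and p63. It ranged from 51.1 CPM in 4504h to 229 CPM in 4515 among KPF libraries (median 79.2). The KPYYF libraries had 72.1 CPM in 4449, 11.8 CPM in 4891 and 3.73 CPM in 4938. Again 4449 was inside the KPF range and the other two below it. The log2 fold change was −1.78 (SE 0.86, edgeR adjusted p = 0.344, exact permutation p = 0.0476), and −3.69 (SE 0.77, adjusted p = 0.0391) without 4449.

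**Figure D3:**
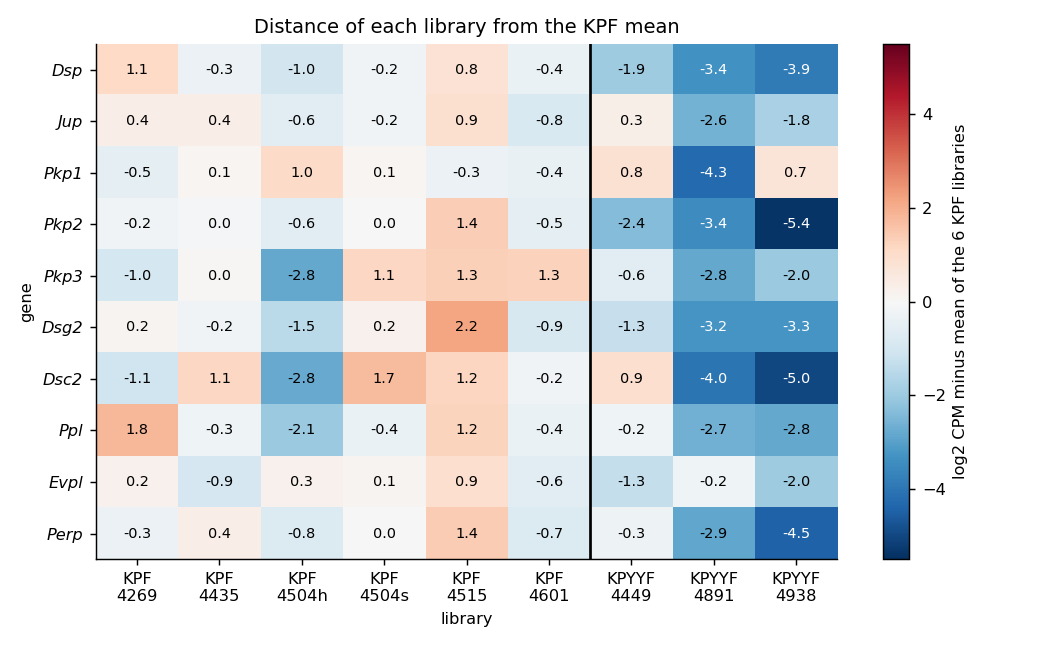
Difference of each library's log2 CPM (prior count 2) from the mean of the 6 KPF libraries, for each desmosome gene (rows) and library (columns, the black line divides KPF from KPYYF), in red above and blue below that mean. Deep blue fills most of the columns of 4891 and 4938, whose median differences are −3.04 and −3.05, and the column of 4449 is paler, with a median difference of −0.44 and 7 genes below the KPF mean.

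The KPYYF libraries thus fell into different patterns. In 4891, 9 of the 10 genes lay below the lowest KPF library, and in 4938 it was 8, where 20.7% and 19.2% of all genes tested did so. In 4449 it was 3 (Dsp, Pkp2 and Evpl), against 22.5% of all genes. The median difference from the KPF mean over the 10 genes was −0.44 in 4449, −3.04 in 4891 and −3.05 in 4938 on the log2 scale. Library 4449 was the highest KPYYF library for every gene but Evpl. With 4449 left out, Dsp, Jup, Pkp2 and Perp were lower at an adjusted p under 0.05, 4 of 10 against 1.43% of all genes, and the median log2 fold change was −3.49. Library 4449 was singled out by these same values, so this count is no separate test. Without 4891 or without 4938, 0 of the 10 were called lower, where 15 and 13 of all genes tested were.

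**Figure D4:**
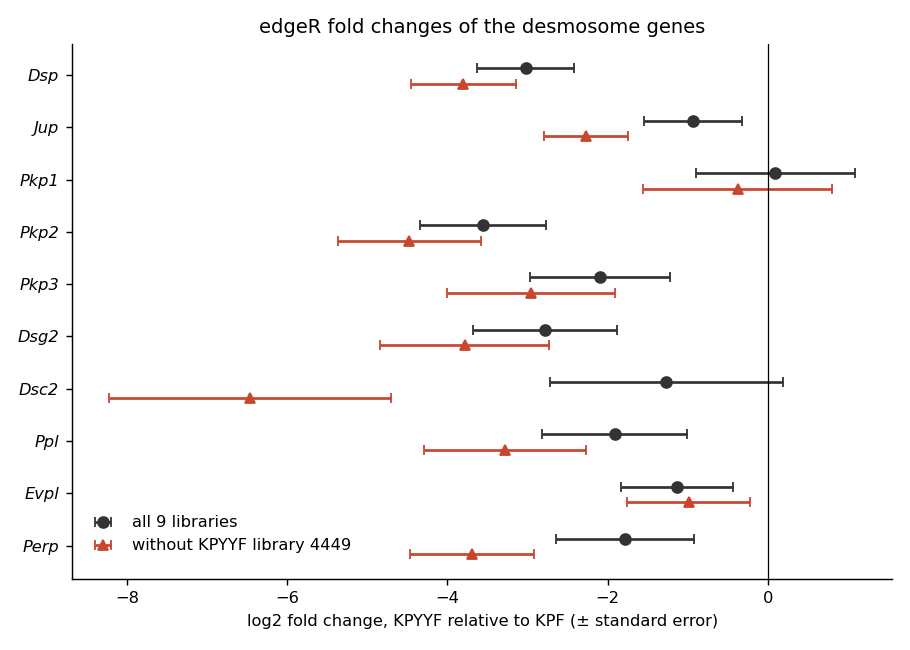
Log2 fold change (KPYYF relative to KPF, edgeR) on the x axis for each desmosome gene, with bars of ± 1 SE, from all 9 libraries (black circles) and without KPYYF library 4449 (red triangles). The value for Dsp moves from −3.02 to −3.80 and that for Jup from −0.93 to −2.27, whereas Evpl stays near −1.

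KPF libraries differed from each other as well. Library 4504h was the lowest KPF library for 7 of the 10 genes and the highest for Pkp1, and 4515 was the highest for 6. Library 4504s, from the same mouse number as 4504h, had 28.8 times its CPM of Dsc2, 15.6 times that of Pkp3 and 3.28 times that of Dsg2, but 1.37 times that of Jup, 0.923 times that of Evpl and 0.522 times that of Pkp1. The 2 libraries also differed in the summed acinar markers, at 13681 CPM in 4504s and 281 CPM in 4504h, whose part in these differences was not tested. With both libraries summed into 1, Dsp kept its call (adjusted p = 0.0398).

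Markers of ductal cells and of other cell types were read in the same libraries. The 8 ductal markers were all lower in KPYYF libraries, 3 of them (Cdh1, Muc1 and Cftr) at an adjusted p under 0.05, and their sum was 1335 to 5428 CPM in KPF libraries and 1094, 291 and 395 CPM in 4449, 4891 and 4938. Their sum was highest in 4449 among the KPYYF libraries, as that of the desmosome genes was, whereas Muc1 and Cftr were lowest there. All 5 mesothelial markers were lower too, with a sum of 352 to 2753 CPM in KPF libraries and 161, 209 and 40.8 CPM in KPYYF libraries. Most of that sum was Msln, at 342 to 2725 CPM in KPF and 155, 202 and 40.5 CPM in KPYYF libraries. In the KPYYF libraries Upk3b was at 0.950, 0 and 0 CPM. There Upk1b, the 1 that passed (edgeR adjusted p = 0.0277), was at 0, 0.109 and 0 CPM. Of 8 fibroblast markers 6 were higher, with a median log2 fold change of 0.68 and sums of 309 to 3910 CPM in KPF and 1183 to 2752 CPM in KPYYF libraries. None of them passed in edgeR, 2 (Pdgfra and Thy1) were higher at an unadjusted p under 0.05, and DESeq2 called Pdgfra higher. Immune markers summed to 9475 CPM in KPF library 4601, 2661 CPM in 4504s and 436 to 683 CPM in the other KPF libraries. In KPYYF libraries they summed to 434 to 736 CPM, and 6 of 6 tested had negative log2 fold changes. The sums thus overlapped between the groups, and only KPF libraries 4601 and 4504s lay above the KPYYF range. Endothelial markers summed to 7.198 to 51.6 CPM in KPF and 7.01 to 15.0 CPM in KPYYF libraries (3 of 4 lower). Acinar markers summed to 34.1 to 13681 and 37.1 to 3429 CPM (2 of 4 lower), and islet markers to 2.45 to 65.4 and 2.63 to 11.2 CPM (5 of 6 lower). In edgeR none of these 4 lists had a gene past the adjustment, with 0, 2, 0 and 3 genes lower at an unadjusted p under 0.05, and DESeq2 called 0, 2, 0 and 2 lower. At that unadjusted threshold, 1416 of all 14105 genes tested were lower and 860 higher. Markers of keratinocytes, the desmosome-rich cells of skin, summed to 8.09 to 35.1 CPM in KPF and 20.6 to 24.8 CPM in KPYYF libraries, with both tested markers having positive log2 fold changes (Krt10 0.56 and Krt14 0.24, adjusted p = 0.749 and 0.960). Krt1, Krt5 and Dsg3 were at 0 in every KPYYF library and at most 0.683 CPM in a KPF library, and the 10 reads of Trp63 all came from KPYYF libraries. The part of any of these cells in the desmosome values was not tested.

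Keratins are the filaments to which Dsp attaches. Of 11 keratin genes 7 could be tested, 6 were lower and 1 higher, and their median log2 fold change was −2.49. Krt18, a keratin of simple epithelia whose reads may be shared with pseudogene copies, passed the adjustment (log2 fold change −2.49, SE 0.34, adjusted p = 0.0141), at 1278 to 2365 CPM in KPF libraries and 461, 243 and 268 CPM in 4449, 4891 and 4938. As with Dsp, the groups did not overlap.

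Adherens junctions share Jup with desmosomes. Of 12 of their genes 11 were lower and 1 higher, with a median of −0.57, and 2 passed the adjustment. Cdh1, or E-cadherin, was at 333 to 2105 CPM in KPF libraries and 245, 98.3 and 94.0 CPM in KPYYF libraries (log2 fold change −2.92, adjusted p = 0.0351). Nectin2, an adhesion receptor, was at 52.0 to 140 CPM and at 24.6, 3.72 and 15.3 CPM (log2 fold change −2.72, adjusted p = 0.0422). Ctnnb1, the armadillo relative of Jup at adherens junctions, had a log2 fold change of −0.29 (SE 0.29, adjusted p = 0.691).

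Relatives of the plaque proteins outside the desmosome were read too. Of 6 tested plakin and armadillo relatives, 5 were lower and 1 higher, none at an adjusted p under 0.05 by edgeR, DESeq2 or limma-voom, 1 (Pkp4) at an unadjusted p under 0.05, with a median of −0.77. Pkp4, a plakophilin relative found mainly at adherens junctions, was at 110 to 204 CPM in KPF libraries and 98.0, 91.8 and 55.2 CPM in KPYYF libraries (log2 fold change −0.81, adjusted p = 0.214). The log2 fold changes of the spectraplakins Macf1 and Dst were −0.73 and −0.55 (adjusted p = 0.328 and 0.512).

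Hemidesmosomes anchor keratin to the basement membrane with other proteins. All 6 tested genes were lower, with a median of −1.33, and Lamb3, a chain of laminin-332, passed the adjustment (52.3 to 114 CPM in KPF and 14.1, 7.65 and 3.18 CPM in KPYYF libraries, log2 fold change −3.18, adjusted p = 0.0176). Of the cornified envelope genes that Ppl and Evpl serve in skin, 6 of 10 could be tested, 3 were lower and 3 higher, and edgeR called none at an adjusted p under 0.05, with 1 in each direction (Sprr1a lower and Sprr1b higher) at an unadjusted p under 0.05, while DESeq2 called Sprr1a lower. Sprr1a had a log2 fold change of −2.56 (adjusted p = 0.164). Sprr1b was seen almost wholly in KPYYF library 4938, at 11.4 CPM, and Cnfn mostly in 4449, at 12.1 CPM.

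Genes of the mesenchymal state and known regulators were also read. Of Cdh2, Cdh11 and Vim, none passed by edgeR (adjusted p = 0.991, 0.443 and 0.794), DESeq2 or limma-voom, and 0 were under an unadjusted p of 0.05. Vim, vimentin, was at 601 to 2358 CPM in KPF libraries and 747, 1692 and 2935 CPM in 4449, 4891 and 4938. Vim was thus lowest in the KPYYF library in which most desmosome genes were highest. Of 6 tested regulators of epithelial junction genes 1 was lower and 5 higher, and edgeR called none at an adjusted p under 0.05, whereas DESeq2 called Grhl2 lower. At an unadjusted p under 0.05, Grhl2, a grainyhead activator of junction genes, was lower, at 1.12 to 8.20 CPM in KPF libraries and at 0, 0.109 and 0 CPM in KPYYF libraries (adjusted p = 0.119). Snai1, a repressor of Cdh1, was higher, at 2.14 to 36.3 CPM and at 39.1, 96.3 and 53.0 CPM (log2 fold change 1.59, SE 0.64, adjusted p = 0.241). Zeb1, another repressor, had a log2 fold change of 0.88 (adjusted p = 0.339).

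Among 8858 further genes with a mean of at least 10 CPM, 5 followed the mean profile of the desmosome genes most closely over the 9 libraries, by the root mean square difference of centered log2 CPM. They were Tmprss2 (0.291), a membrane serine protease, Rbm47 (0.331), an RNA-binding protein, Gprc5a (0.372), an orphan receptor, Bdh1 (0.397), a ketone body enzyme, and Lrba (0.397), against a median of 1.48 over these genes. None of the 5 passed the adjustment in the comparison of groups (adjusted p = 0.0669 to 0.308). Measured in the same way, the desmosome genes lay between 0.482 for Dsg2 and 1.59 for Pkp1 from their own mean, with Jup at 0.540 and Perp at 0.558.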

How the data were processed

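RNA of sorted PDAC cells was sequenced with Lexogen QuantSeq 3′ Fwd. The authors deposited raw read counts per Ensembl gene for each library, and the submitters' processing notes name STAR, HTSeq and mm10. Reads not assigned to a gene (not unique, no feature or ambiguous) stayed out of library sizes, which left 37.3% to 42.0% of reads on genes. Strand settings of the counting were not given in the sources used here. Symbols and positions came from the GRCm38 annotation. A symbol matched 47224 of the 47643 identifiers. Genes reaching 100 counts in sum were tested with edgeR 4.0.16 (robust quasi-likelihood test, TMM factors 0.833 to 1.08, no covariate) in R 4.3.3, with Benjamini-Hochberg adjustment over all 14105. SE was obtained as |log2 fold change|/√F. Single genes were also compared by an exact two-sided permutation test over 84 splits. The permutation tests took all libraries as independent and were not repeated with libraries of a shared mouse number summed. The scripts were tested on simulated data. Promoters were taken from RefSeq, which held 2 of the 10 genes.

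Alternatives were DESeq2 1.42.0, other normalizations and filters, limma 3.58.1 (voom), 4504h and 4504s summed, libraries with at least 1000 Xist counts, another prior count and each library left out. A further allele that both genotypes share is not reported here. The 10 genes and the lists were chosen with earlier results of these data known. Named from each list were the genes past the adjustment, or else up to 3 with the smallest p, and the 5 genes of the most similar profile. Other genes that spell out a count, single cell type markers and the 4 ratios were chosen after their values were seen.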

Additional observations from a re-analysis of the deposited data

Results flagged for a closer look

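In 11 genes checked (the 10 desmosome genes and Yap1) for a KPF library far from the other 5, Pkp2 in KPF library 4515 stood apart, at 6.14 on the log2 CPM scale or 70.4 CPM. Its gap to the nearest library was 0.713 of the range of the group, above Dixon's critical value. Chance gives such a value in about 1 of 20 groups. Library 4515 was also the highest KPF library for 6 of the 10 genes. Without it, the log2 fold change of Pkp2 was −3.11 (edgeR, adjusted p = 0.0997).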

How the results depend on the processing

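The number of desmosome genes lower at an adjusted p under 0.05 was 1 by edgeR, 3 by DESeq2, 2 with no filter on low counts, 2 with filterByExpr and 0 among libraries with at least 1000 Xist counts. With single libraries left out it ran from 0 (without KPF library 4435, 4504s or 4515 or KPYYF library 4891 or 4938) to 4 (without KPYYF library 4449). The count by the rule of the methods then ran from 3 to 8. The share of all genes under that rule was computed only for the fit on all libraries, at 9.20%, so these counts have no background of their own. The median log2 fold change ran from −3.49 (without 4449) to −1.39 (without 4938). The median was −2.67 with limma-voom. The log2 fold change of Pkp1 turned negative with limma-voom (−1.61) and among libraries with at least 1000 Xist counts (−0.29), and ran from −0.38 to 0.67 with single libraries left out. Dsp was lower in all 17 alternatives and passed in 11 of them (adjusted p = 3.32e-06 to 0.136). Over all genes, edgeR called 112 lower and 43 higher, DESeq2 928 and 269, the fit with no filter 219 and 88, and limma-voom 39 and 44. The filterByExpr fit called 118 lower and 44 higher of 14554 genes. Among libraries with at least 1000 Xist counts, 31 were lower and 6 higher of 13077. At that last share, 0 of 10 does not set the desmosome genes apart. Fits with a library left out called 13 to 198 lower and 6 to 75 higher. No paired analysis was possible because the labels give no replicate numbers and the groups share no mouse number, so that the numbers within each group only name the libraries. Depth limits Pkp1 and Dsc2 in 4891, with 1 and 2 reads, and Pkp2 and Dsc2 in 4938, with 4 and 0 reads. The cause of these changes was not tested.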
